A study of Mus musculus with 48 samples.

Results

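Cardiomyocytes of mice that received VEGFCc156s together with angiotensin II were compared with cardiomyocytes of mice that received angiotensin II alone. The libraries were taken by the cell type and treatment in their labels, which gave 3 angII+VEGFC and 5 angII libraries, 8 of the 48 RNA-seq libraries of the series and 8 of its 12 cardiomyocyte libraries. The other 4 cardiomyocyte libraries (ctrl) gave the change made by angiotensin II itself. All mice were Prox1-eGFP knock-in animals of the C57BL/6 strain per the labels, with an eGFP cassette in the 3′UTR of the endogenous Prox1 gene, so the controls carried this allele as well. A minipump delivered saline with bovine serum albumin (BSA) in the ctrl group, angiotensin II with BSA in the angII group and angiotensin II with VEGFCc156s in the angII+VEGFC group. The 4 ctrl mice were 9, 8, 16 and 16 months old per the labels, the 5 angII mice 8, 14, 16, 16 and 14 months and the 3 angII+VEGFC mice 15, 8 and 8 months, whereas the methods of the study give ages in weeks. The cardiomyocytes were pelleted at low speed from enzymatically digested heart, without a sort, and all 12 libraries were sequenced in 1 set. Values are given in the order of the replicate numbers throughout.

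Angiotensin II raises blood pressure and acts on the heart directly, and the loaded heart muscle answers with hypertrophy and a return to genes of the fetal heart, which include those of the natriuretic peptides, of skeletal alpha actin and of the beta myosin heavy chain. At the same time the genes of fatty acid oxidation, of calcium cycling and of the adult contractile apparatus are commonly lowered, and fibroblasts lay down matrix. VEGFCc156s is a mutant of the growth factor VEGFC that activates VEGFR3, the product of Flt4, a receptor found mainly on lymphatic endothelium, and it was given to enlarge the lymphatic vasculature. The comparison asks whether the stress response of the cardiomyocytes was relieved when this factor was added.

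The libraries carried the markers of cardiomyocytes. Levels are in TPM, an abundance normalized for transcript length and library total. Myh6, the gene of the alpha myosin heavy chain, had a median of 1905 TPM over the 12 libraries against 7.52 TPM in the sorted heart blood endothelial cells (BECs). Nppb had 389 against 2.17 TPM. Transcripts of other cells were present in every library. Lyz2, a gene of macrophages, had a median of 567 TPM, and Dcn, a gene of fibroblasts, 2339 TPM. Since these are bulk samples, fewer cells of a type and less RNA per cell cannot be told apart. The library angII+VEGFC replicate 3 stood apart from the others. It held 19306 genes at 1 TPM or more against 13020.0 to 15816 in the other 11. Its Pearson correlation with them across genes was 0.907 to 0.947, beside 0.944 to 0.972 among the angII libraries, where genes are no independent replicates. Most lists are therefore described with and without this library, and so are some of the genes whose value moved with it.

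No marker sum passed the test between the angII+VEGFC and angII groups, an exact permutation test, two-sided, over the 56 labellings of 5 and 3 libraries, whose smallest possible p is 0.0357. The 3 cardiomyocyte markers Myh6, Tnni3 and Nppb summed to 3992, 5807, 3780.2, 4064 and 9168 TPM in angII and 4949, 6108 and 3248 TPM in angII+VEGFC. Replicate 5 was the highest of the angII libraries and replicate 3 the lowest of the angII+VEGFC libraries. The 17 macrophage and leukocyte markers summed to 1422 to 1577 TPM in ctrl, 3319, 1999, 1991, 2427 and 2386 TPM in angII and 2234, 3815 and 1713 TPM in angII+VEGFC. Both treated groups lay above the ctrl range in every library. The 12 fibroblast markers summed to 14154, 9161, 10263, 12062 and 10306 TPM in angII and 14094, 12718 and 9132 TPM in angII+VEGFC. Replicate 3 was again the lowest of its group. The 5 atrial markers summed to 8698, 19344, 15387 and 7637 TPM in ctrl, with a mean of 12766 TPM. They summed to 6843, 6911, 3038, 3356 and 12180.0 TPM in angII, with a mean of 6466 TPM. In angII+VEGFC they summed to 5807, 3506 and 7032 TPM. The part of atrial muscle in the values of angII over ctrl was not tested. Over the 13 measures, which also covered the genes at 1 TPM or more, the share of mitochondrially encoded transcripts and blood endothelial, lymphatic, pericyte, erythrocyte, adipocyte, mesothelial and Schwann cell markers, the exact permutation p was 0.25 to 0.93 and 0.93 after Benjamini-Hochberg adjustment for each.

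**Figure D1:**
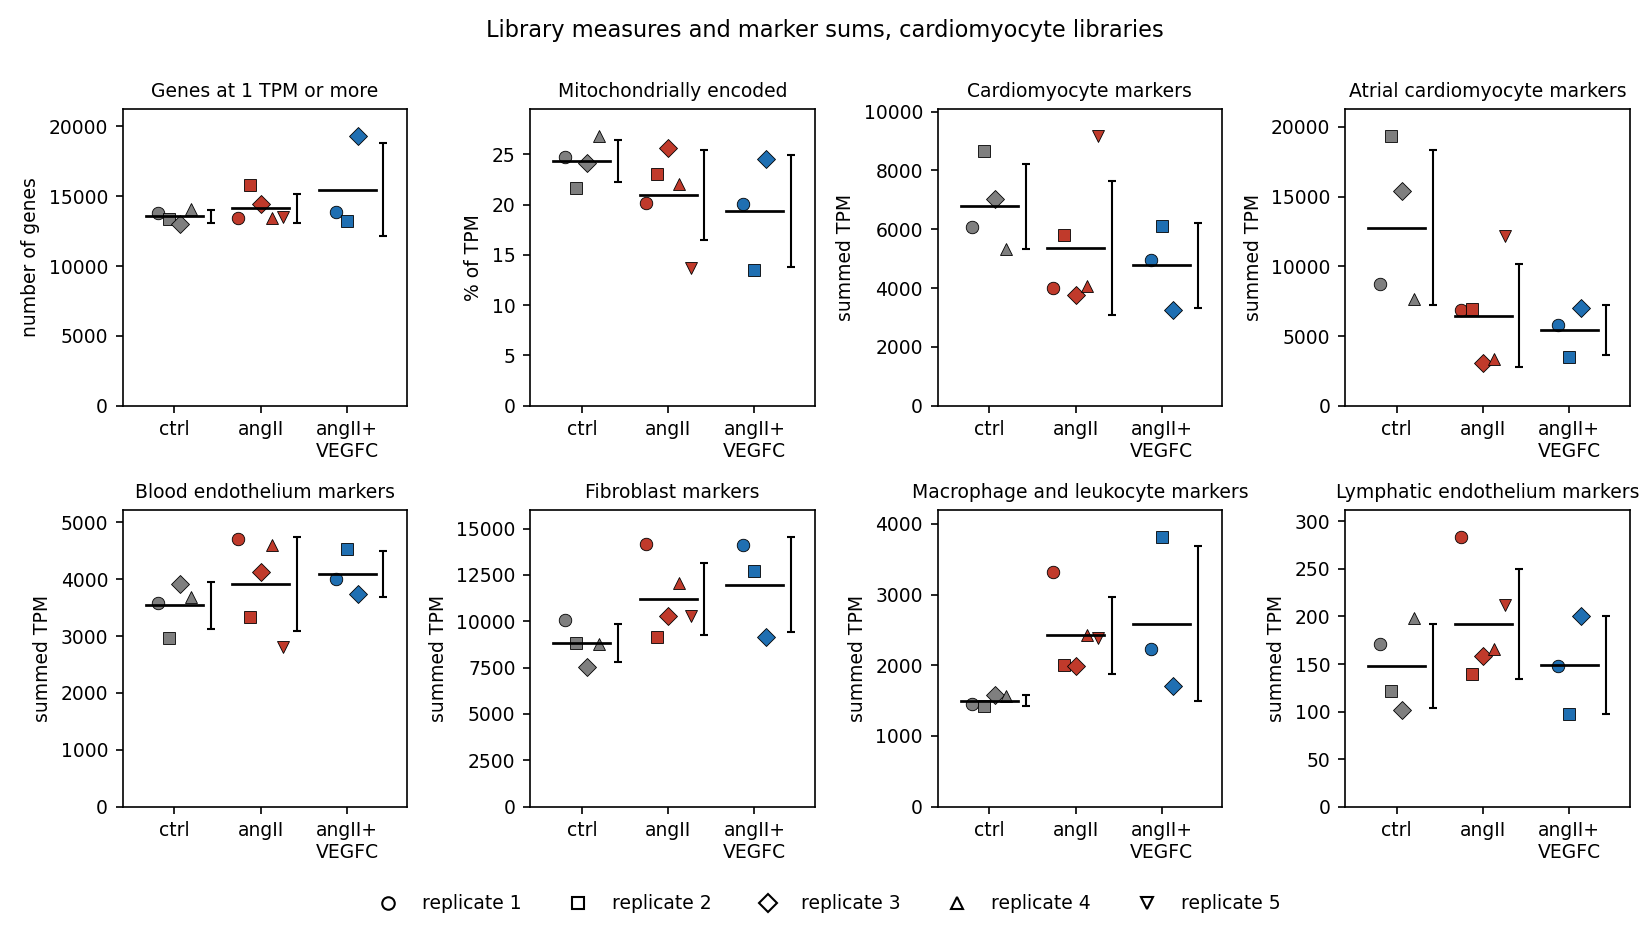
Genes at 1 TPM or more, share of TPM from mitochondrially encoded genes and summed TPM of 6 marker lists (vertical axes from 0) in each of the 12 cardiomyocyte libraries. Points are libraries, with the symbol giving the replicate number, horizontal lines are group means and the bars beside them ± 1 SD. Replicate 3 of angII+VEGFC is highest in the number of genes and lowest in the cardiomyocyte markers of its group, and macrophage markers are higher in all treated libraries than in ctrl.

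No gene passed the test when VEGFCc156s was added to angiotensin II. Of 15691 genes tested with limma on log2(TPM + 1), with age as a covariate and all 3 groups in one model, 0 had an adjusted p under 0.05 (0%), and the smallest adjusted p was 1.00. An unadjusted p under 0.05 was reached by 378 genes, of which 133 were higher (0.848%) and 245 lower (1.56%) with VEGFCc156s. Together they are a smaller share than that threshold alone would give without any change. The median gene had an unadjusted 95% interval of ± 0.61 on the log2 scale, so that a smaller change of such a gene could not be resolved. Larger changes need not pass the adjusted test either. In libraries simulated with the means and spreads of these, it recovered 77 of 200 genes changed by 1. For a change of 2 it recovered 193 of 200, in both cases among genes drawn at random from those at higher levels. The simulated noise was independent between genes, so it held no library that stood apart as angII+VEGFC replicate 3 did. These shares therefore do not hold for genes of large spread, such as Nppb (SE 0.69) and Acta1 (SE 0.87). Without angII+VEGFC replicate 3 the count was again 0, with 759 genes at an unadjusted p under 0.05, of which 476 were higher and 283 lower among the 14910 genes that then passed the filter. Between angII and ctrl 14 genes (0.0892%) passed, 12 higher and 2 lower. That count moved between 0 and 314 when single libraries were left out, with 314 genes without angII+VEGFC replicate 3. This library belongs to neither group, but it enters the filter and the shared estimates of spread and age. Fitted differences on this scale understate the change of genes at a few TPM, and since the angII libraries enter both comparisons, the values of the 2 comparisons are given side by side and are not independent.

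The natriuretic peptide genes were as high with VEGFCc156s as without it in most libraries, and the angII+VEGFC libraries disagreed among themselves. Nppb (chr4:147985788-147987205, GRCm38, plus strand), which encodes the B-type natriuretic peptide secreted by stretched heart muscle, was at 365, 563, 144 and 147 TPM in ctrl, 352, 1093, 346, 413 and 1153 TPM in angII and 1349, 1679 and 223 TPM in angII+VEGFC. Replicates 1 and 2 of angII+VEGFC lay above all 5 angII libraries, and replicate 3 lay below all 5 and within the ctrl range. The fitted difference between angII+VEGFC and angII was 0.33 (SE 0.69, 95% interval -1.14 to 1.81, unadjusted p = 0.64), beside 1.22 (SE 0.60) for angII over ctrl, and it was 1.18 (unadjusted p = 0.045) without replicate 3. Nppa (chr4:148000722-148002079, plus strand), which encodes the atrial peptide and lies 13.5 kb from Nppb, was at 17705, 35639.6, 17198 and 10482 TPM in ctrl, 21765, 31004, 7071, 18854 and 66146 TPM in angII and 34538, 30844 and 16768 TPM in angII+VEGFC. Its groups overlapped, with the highest library in angII, and the fitted difference was 0.01 (SE 0.58, 95% interval -1.24 to 1.26, unadjusted p = 0.99). Atrial muscle expresses Nppa at a high level. The sums of atrial markers are given above for each library, and their part in the values of Nppa was not tested.

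In Acta1 and Myh7, of the fetal contractile genes, 1 library, angII+VEGFC replicate 2, stood above all others. Acta1, the skeletal alpha actin gene, was at 44.8, 126, 33.1 and 229 TPM in ctrl, 133, 899, 814, 520.1 and 636 TPM in angII and 335, 3531 and 299 TPM in angII+VEGFC. Replicate 2 had the highest value of all 12 libraries and the other two lay within the angII range, with a fitted difference of 0.65 (SE 0.87, 95% interval -1.21 to 2.51, unadjusted p = 0.47) beside 2.55 (SE 0.76) for angII over ctrl. Myh7 (chr14:54970684-54994626, minus strand), which encodes the slow beta myosin heavy chain, was at 19.5, 16.6, 8.71 and 26.9 TPM in ctrl, 14.5, 32.8, 55.6, 35.1 and 33.5 TPM in angII and 25.6, 133 and 7.72 TPM in angII+VEGFC. Again replicate 2 was the highest of the 12 libraries, whereas replicate 3 was the lowest, and the fitted difference was 0.08 (SE 0.69, 95% interval -1.39 to 1.54, unadjusted p = 0.91). Myh6, whose gene lies 3.8 kb from Myh7, was at 1506, 1899, 1379, 1604 and 3914 TPM in angII and 1678, 1911 and 1004 TPM in angII+VEGFC. The groups overlapped with a fitted difference of -0.37 (SE 0.34, 95% interval -1.09 to 0.36, unadjusted p = 0.30). Tnni3, the cardiac troponin I gene, was at 2134, 2815, 2056, 2047 and 4101 TPM in angII and 1922, 2518 and 2022 TPM in angII+VEGFC. The fitted difference was -0.30 (SE 0.28, 95% interval -0.90 to 0.31, unadjusted p = 0.31).

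**Figure D2:**
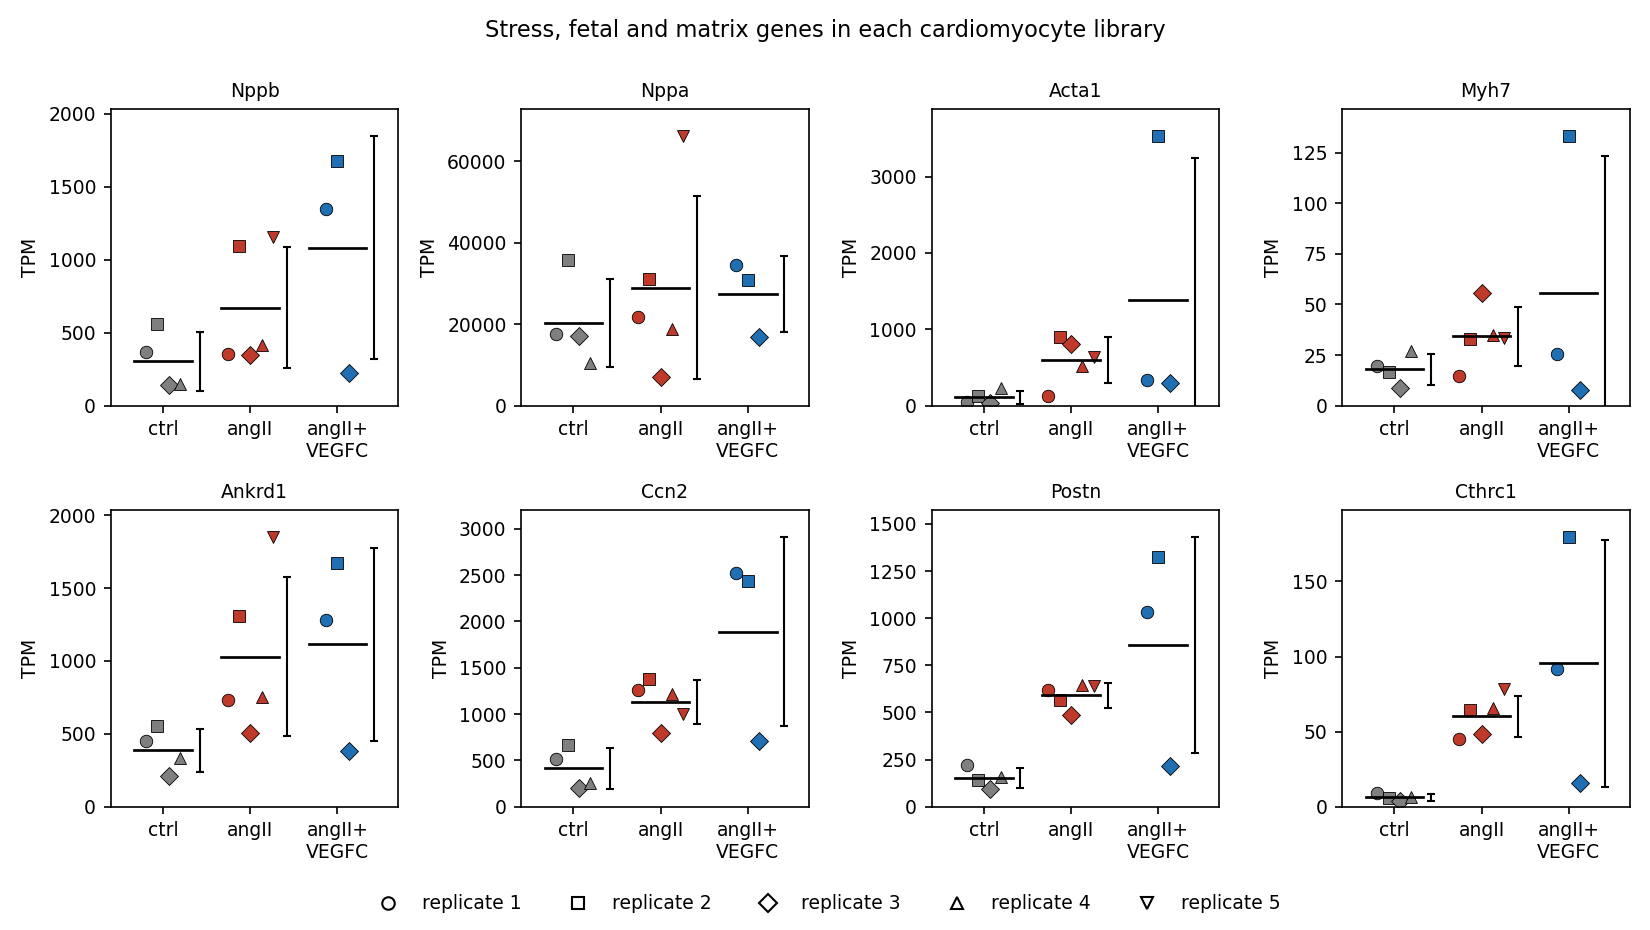
TPM (vertical axes from 0) of 8 stress, fetal and matrix genes in each cardiomyocyte library of the ctrl, angII and angII+VEGFC groups. Points are libraries, lines are group means and the bars beside them ± 1 SD, cut at 0 where they pass it. In Nppb, Ccn2, Postn and Cthrc1, replicates 1 and 2 of angII+VEGFC lie above all 5 angII libraries and replicate 3 below all 5.

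In the genes of stretch and growth signalling, replicate 3 was the lowest of the 3 angII+VEGFC libraries. Ankrd1, a stretch-responsive protein of the sarcomere and nucleus, was at 448, 556, 212 and 331 TPM in ctrl, 732, 1307, 507, 751 and 1850.3 TPM in angII and 1284, 1675 and 382 TPM in angII+VEGFC. Its fitted difference was -0.08 (SE 0.51, 95% interval -1.18 to 1.02, unadjusted p = 0.88) beside 1.39 (SE 0.45) for angII over ctrl. Ccn2, the connective tissue growth factor gene, was at 519, 665, 205 and 260.1 TPM in ctrl, 1261, 1379.5, 791, 1221 and 996 TPM in angII and 2522, 2437 and 710.1 TPM in angII+VEGFC. Replicates 1 and 2 exceeded every angII library and replicate 3 lay below them all, with a fitted difference of 0.37 (SE 0.44, 95% interval -0.57 to 1.31, unadjusted p = 0.41), or 0.96 (unadjusted p = 0.0069) without replicate 3. Xirp2, an actin-binding protein of the intercalated disc, was at 6.16, 41.9, 22.8, 22.2 and 51.9 TPM in angII and 33.6, 64.0 and 9.89 TPM in angII+VEGFC. Its fitted difference was 0.56 (SE 0.59, unadjusted p = 0.36). Uchl1, a deubiquitinase, differed little among the angII+VEGFC libraries. It was at 18.4, 12.0, 13.5 and 21.9 TPM in ctrl, 31.1, 44.0, 32.1, 33.9 and 38.5 TPM in angII and 38.0, 44.7 and 37.0 TPM in angII+VEGFC. Each angII+VEGFC library lay above the ctrl range and, except for replicate 2 just above its upper edge, within the angII range, with a fitted difference of 0.20 (SE 0.22, 95% interval -0.27 to 0.68, unadjusted p = 0.38). Gdf15, a secreted stress cytokine, was at 36.0, 21.1, 21.5, 25.3 and 16.4 TPM in angII and 23.9, 68.9 and 20.1 TPM in angII+VEGFC, and its values overlapped with a fitted difference of 0.24 (SE 0.33, unadjusted p = 0.47).

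Of the 25 genes of the stress and fetal list, 24 passed the filter of 1 TPM in 3 libraries, the exception being Ankrd2 at 0 to 4.06 TPM. With VEGFCc156s, 16 of the 24 had a fitted value above that of angII and 8 below, with a median of 0.19. Over all genes tested 7051 of 15691 were above, with a median of -0.03. The 16 were Tagln, Acta1, Xirp2, Enah, Acta2, Xirp1, Fhl1, Ccn2, Flnc, Nppb, Gdf15, Uchl1, Csrp3, Myh7, Nppa and Ccn1, from 0.69 in Tagln to 0.01 in Ccn1. The 8 were Mt2, Rcan1, Nes, Ltbp2, Ankrd1, Tnni1, Hspb1 and Mt1, none lower than -0.19, the value of Mt1. Tagln, the smooth muscle protein transgelin, was the only member with an unadjusted p under 0.05, where 0.848% of all genes were higher at that p. It was at 206, 278, 189, 369 and 235 TPM in angII and 374, 315 and 449 TPM in angII+VEGFC. The groups overlapped in 1 angII library, with a fitted difference of 0.69 (SE 0.26, 95% interval 0.14 to 1.25, unadjusted p = 0.018). The 9 markers of pericytes and smooth muscle, a list without Tagln, summed to 630.4, 1169, 723, 943 and 2056 TPM in angII and 1288, 1337 and 729 TPM in angII+VEGFC, and their part in this value was not tested.

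The direction of the list depended on which angII+VEGFC library was left out. Replicate 1 was above all 5 angII libraries in 7 of the 24 genes and below all 5 in 0, and replicate 2 in 16 and 0. Replicate 3 was above all 5 in 2 genes and below all 5 in 10, and it was the lowest of the 3 in 21 of 24. Over all genes tested the 3 libraries were above the angII range in 16.3%, 22.1% and 18.8% and below it in 10.2%, 15.6% and 28.6%, and replicate 3 was the lowest in 49.7%. The median of the list was 0.53 without replicate 3, -0.21 without replicate 1 and -0.10 without replicate 2, and it was 0.00 without angII replicate 1. Without angII+VEGFC replicate 3, 22 of 24 members were above angII and 7 were higher at an unadjusted p under 0.05. Over all genes in that fit, 8001 of 14910 were above angII and 476 higher at that p. Replicate 3 also held the most genes at 1 TPM or more, and the part of that in its low values was not tested. With the number of genes as a further covariate the median was 0.37.

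The 95% intervals of the stress genes were set beside their angII increases, which cannot exclude a full return. In the angII over ctrl comparison, 19 of the 24 genes were higher and 8 had an unadjusted p under 0.05, where 8.00% of all genes were higher at that p and 68.3% had a fitted value above 0. These 8 were Acta1, Ankrd1, Xirp2, Uchl1, Fhl1, Ccn2, Gdf15 and Ltbp2, and none passed the adjustment over all genes. In each of the 8, a decrease as large as the angII increase lay outside the 95% interval of the difference made by VEGFCc156s. In Acta1 the interval reached -1.21 against an angII increase of 2.55, in Ccn2 -0.57 against 1.66 and in Ltbp2, a binding protein of the extracellular matrix, -1.49 against 1.63. Partial decreases were inside every one of these intervals. Without angII+VEGFC replicate 1 such a decrease was inside the interval in 2 of the 8 genes, and without replicate 2 in 3. It was inside in 2 without angII replicate 1 and in 1 without ctrl replicate 3 or angII replicate 2. The 8 genes were taken for their high values in the angII libraries, which are also the baseline of this difference. The error of the angII increase was left out as well, so a full return is not excluded.

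**Figure D3:**
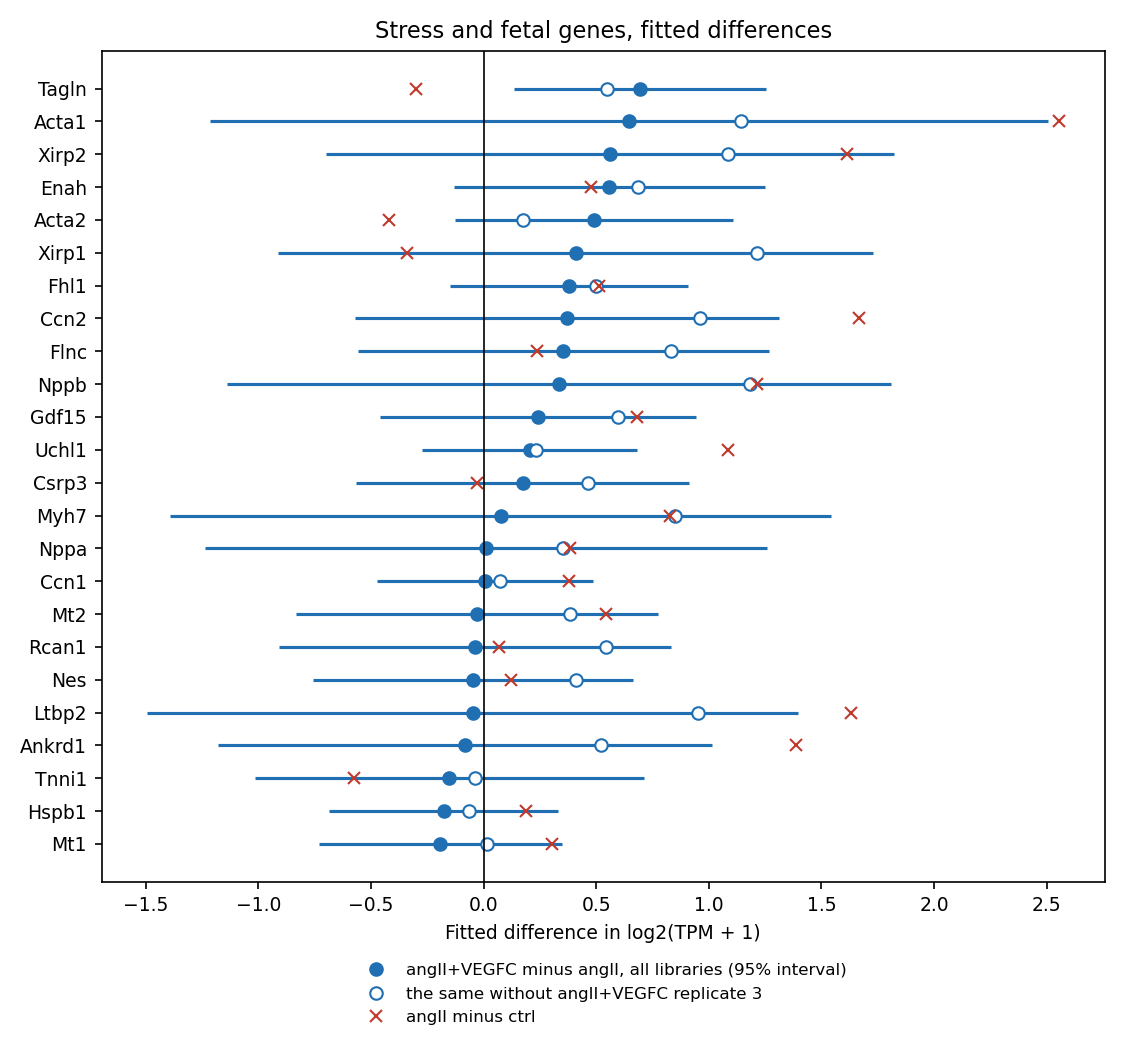
Fitted differences in log2(TPM + 1) of the 24 tested stress and fetal genes (horizontal axis). Filled points with lines are angII+VEGFC minus angII with the 95% interval, open points the same without angII+VEGFC replicate 3, and crosses angII minus ctrl. The filled points range from -0.19 to 0.69, and 22 of the 24 open points lie above 0, beside 8001 of 14910 over all genes.

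Genes of the extracellular matrix, which fibroblasts produce in the loaded heart, were high in both treated groups. All 21 genes of the matrix list were higher in angII than in ctrl, where 68.3% of all genes had a fitted value above 0. Of the 21, 18 were higher at an unadjusted p under 0.05 (8.00% of all genes) and 14 with no overlap of the groups (5.10% of all genes). The list was chosen with results of angII in these libraries known, so that these counts are not independent evidence of its direction. With VEGFCc156s, 17 of the 21 were above and 4 below the angII value, beside 7051 of 15691 above over all genes. The median was 0.16 and 0 had an unadjusted p under 0.05. Postn, the matrix protein periostin, was at 219, 143, 91.7 and 159 TPM in ctrl, 617, 565, 488, 646 and 638 TPM in angII and 1032, 1322 and 217 TPM in angII+VEGFC. Replicates 1 and 2 of angII+VEGFC were the highest of the 12 libraries and replicate 3 lay within the ctrl range, below all angII libraries. The fitted difference was 0.18 (SE 0.48, 95% interval -0.84 to 1.20, unadjusted p = 0.71), or 0.89 (unadjusted p = 0.0030) without replicate 3. Cthrc1, a secreted collagen triple helix protein, was at 45.2, 64.1, 48.1, 65.5 and 78.3 TPM in angII and 91.6, 179.6 and 15.5 TPM in angII+VEGFC beside 3.66 to 9.27 TPM in ctrl. This gave a fitted difference of 0.16 (SE 0.58, 95% interval -1.07 to 1.40, unadjusted p = 0.78). Thbs4, a thrombospondin, was at 93.4, 213, 157, 252 and 95.7 TPM in angII and 453, 358 and 66.8 TPM in angII+VEGFC. The fitted difference was 0.72 (SE 0.61, unadjusted p = 0.26), the furthest from 0 of the list, and 1.43 (unadjusted p = 0.013) without replicate 3. Replicate 3 again stood below the other two in each of these genes.

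The other matrix genes split in the same way. Replicates 1 and 2 were above all 5 angII libraries in 13 and 14 of the 21 genes, and replicate 3 was below all 5 in 17 and within the ctrl range in 12. Over all genes tested, replicates 1 and 2 were above in 16.3% and 22.1%. Replicate 3 was below all 5 in 28.6% of all genes and within the ctrl range in 39.7%. The median of the list was 0.74 without replicate 3, -0.24 without replicate 1 and -0.11 without replicate 2. Without replicate 3, 21 of 21 genes were above the angII value and 13 were higher at an unadjusted p under 0.05. Over all genes in that fit, 8001 of 14910 were above it and 476 higher at that p. The summed fibroblast markers, given above, were lower in replicate 3 than in the other two angII+VEGFC libraries, and their part in the result was not tested. In each of the 18 genes at an unadjusted p under 0.05 for angII, a decrease as large as the angII increase lay outside the 95% interval of the difference made by VEGFCc156s. Without angII+VEGFC replicate 1 it was inside in 8 of the 18 and without replicate 2 in 3, and in 1 of the 18 without ctrl replicate 3, angII replicate 1 or angII replicate 2, after quantile normalization and after rescaling without mitochondrially encoded and haemoglobin genes. These 18 genes were likewise taken for their high angII values, so a full return is not excluded in them.

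The 14 genes that passed the adjusted test between angII and ctrl were also compared between angII+VEGFC and angII. Ccn5, a matricellular protein, rose with angII by 2.52 (SE 0.29, limma adjusted p = 0.0051) and differed by 0.04 (SE 0.33, unadjusted p = 0.90) with VEGFCc156s, or by 0.37 (unadjusted p = 0.23) without angII+VEGFC replicate 3. Col8a1, a collagen of the vessel wall, rose by 2.06 (SE 0.35, limma adjusted p = 0.046) and differed by 0.32 (SE 0.41, unadjusted p = 0.45), or by 0.93 (unadjusted p = 4.9e-04) without angII+VEGFC replicate 3. Mfap5, a microfibril protein, rose by 1.72 (SE 0.30, limma adjusted p = 0.046) and differed by 0.60 (SE 0.34, unadjusted p = 0.10), or by 1.06 (unadjusted p = 4.7e-04) without replicate 3. Also among them were Pcp4, Itgbl1, Mfap4, P4ha3, Trem2, Cthrc1, Gm20444, Prrx2, Fcrls and Trmt61b. Of the 14, Pcp4 and Trmt61b were the 2 that fell with angII. Trmt61b, a tRNA methyltransferase, was at 11.8, 6.87, 9.96 and 14.3 TPM in ctrl, 4.15, 3.99, 3.40, 5.08 and 4.37 TPM in angII and 9.05, 6.36 and 5.29 TPM in angII+VEGFC. Its angII+VEGFC values lay above all angII values, as in 0.835% of all genes, with a fitted difference of 0.73 (SE 0.24, 95% interval 0.21 to 1.24, unadjusted p = 0.0087), and it was the only one of the 14 at an unadjusted p under 0.05 with VEGFCc156s. The gene is among the 14 for its low angII values, which are also the baseline of this difference, so a rise from them is favoured.

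Most genes of the adult programme of the cardiomyocyte had lower fitted values with VEGFCc156s than with angiotensin II alone. In the list of fatty acid use, 31 of 32 genes had a fitted difference below 0, where 55.1% of all genes did. The same held for 18 of 19 cardiac transcription factors, 25 of 30 genes of calcium handling and ion channels, 26 of 30 of the sarcomere and 19 of 23 of glucose use. The medians, in this order, were -0.33, -0.34, -0.28, -0.27 and -0.27, beside -0.03 over all genes. No gene of these lists passed the adjustment, and 5, 2, 4, 1 and 2 of them were lower at an unadjusted p under 0.05, none higher, where 1.56% of all genes were lower and 0.848% higher. Without angII+VEGFC replicate 3, 28 of 32, 14 of 19, 19 of 30, 14 of 30 and 12 of 23 were below 0, with medians of -0.28, -0.20, -0.12, 0.03 and -0.10. Lower at an unadjusted p under 0.05 were then 2, 2, 2, 1 and 1. Over all genes in that fit, 6909 of 14910 were below 0, with a median of 0.02, and 283 were lower at that p. Replicate 5 of angII had the highest summed cardiomyocyte markers of its group, and without it the medians were -0.18, -0.22, -0.09, -0.07 and -0.09. In the fit without it, 31 of 32, 17 of 19, 24 of 30, 18 of 30 and 15 of 23 were below 0, and 1, 1, 3, 1 and 2 were lower at that p. Over all genes in this fit, 7917 of 15549 were below 0 and 177 lower at that p. With the number of detected genes as a further covariate the medians were -0.28, -0.22, -0.13, -0.07 and -0.10. The part of the cardiomyocyte and atrial markers in these lower values was not tested.

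**Figure D4:**
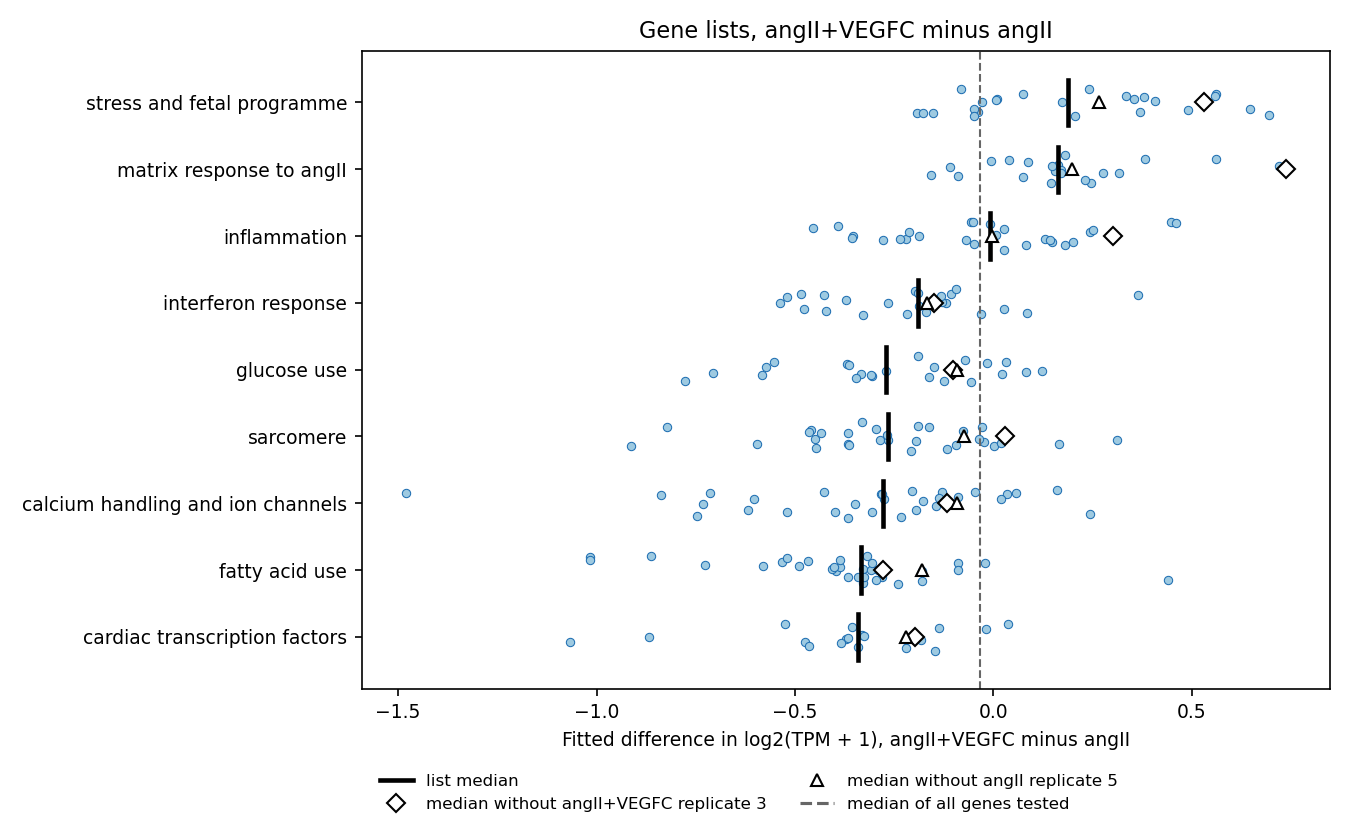
Fitted difference in log2(TPM + 1) between angII+VEGFC and angII (horizontal axis) of each tested gene in 9 lists, with small points for genes and a little vertical scatter for legibility. Bars are list medians, diamonds and triangles the medians without angII+VEGFC replicate 3 and without angII replicate 5, and the dashed line is the median of all genes tested. The medians of the stress and matrix lists move most with replicate 3. Those of fatty acid use, cardiac transcription factors, calcium handling, glucose use and the interferon response lie below the dashed line in all 3 readings.

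Among the genes of calcium cycling, Hrc, a histidine-rich calcium-binding protein of the sarcoplasmic reticulum, was at 40.0, 56.1, 51.7 and 42.1 TPM in ctrl, 29.0, 25.1, 31.1, 24.8 and 44.4 TPM in angII and 14.4, 21.0 and 21.0 TPM in angII+VEGFC. All 3 angII+VEGFC libraries lay below all 5 angII libraries, of which 4 lay below all ctrl libraries, and the fitted difference was -0.75 (SE 0.23, 95% interval -1.25 to -0.25, unadjusted p = 0.0061), or -0.80 without replicate 3. Over all genes 0.848% had no overlap in this direction, a share no greater than labelling alone would give. Kcnj11, the pore of the ATP-sensitive potassium channel, was at 6.36, 4.24, 4.80, 5.66 and 9.66 TPM in angII and 3.53, 4.01 and 2.85 TPM in angII+VEGFC, also without overlap. This channel gene had a fitted difference of -0.71 (SE 0.26, 95% interval -1.28 to -0.15, unadjusted p = 0.017). Atp2a2, the calcium pump SERCA2 of the sarcoplasmic reticulum, was at 1324, 855, 1432 and 477 TPM in ctrl, 761, 277, 493, 254 and 991 TPM in angII and 279, 428 and 266 TPM in angII+VEGFC. Its groups overlapped, with 2 angII libraries at the level of the angII+VEGFC libraries, and the fitted difference was -0.84 (SE 0.45, 95% interval -1.79 to 0.12, unadjusted p = 0.081). In the angII over ctrl comparison 24 of the 30 genes of this list were lower, with a median of -0.23. The sarcomere list had 15 higher and 15 lower there, with a median of -0.01. Glucose use had 9 higher and 14 lower (median -0.04) and the cardiac transcription factors 9 and 10 (median -0.09). Over all genes 68.3% had a fitted value above 0.

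The genes of fatty acid and glucose use had the same direction in most members. Pdk4, the kinase that restrains glucose oxidation when fatty acids are burned, was at 53.9, 86.6, 30.7 and 39.8 TPM in ctrl, 66.5, 26.3, 18.4, 14.2 and 32.4 TPM in angII and 20.4, 26.5 and 14.9 TPM in angII+VEGFC. Its fitted difference was -0.86 (SE 0.32, 95% interval -1.55 to -0.18, unadjusted p = 0.017). Its groups overlapped, and replicate 1 was the highest of the angII libraries. Slc2a4, the insulin-responsive glucose transporter GLUT4, was at 66.9, 83.5, 78.7 and 62.8 TPM in ctrl, 38.5, 36.2, 34.0, 28.9 and 86.2 TPM in angII and 22.2, 23.6 and 29.3 TPM in angII+VEGFC. It had a fitted difference of -0.78 (SE 0.30, 95% interval -1.42 to -0.14, unadjusted p = 0.021), or -0.53 without angII replicate 5, the highest library of the group. Pfkm, the muscle phosphofructokinase, was at 79.0, 62.2, 51.0, 47.3 and 159.5 TPM in angII and 47.1, 58.2 and 40.9 TPM in angII+VEGFC. This gave a fitted difference of -0.71 (SE 0.33, unadjusted p = 0.047). Mlycd, the malonyl-CoA decarboxylase, which relieves the block on fatty acid import into mitochondria, was at 35.8, 12.0, 29.6, 11.7 and 28.7 TPM in angII and 7.79, 24.7 and 9.25 TPM in angII+VEGFC and overlapped, with a fitted difference of -1.02 (SE 0.43, unadjusted p = 0.033). Lpl, the lipoprotein lipase, at 345, 258, 322, 235 and 490.5 TPM in angII and 251, 299 and 208 TPM in angII+VEGFC, differed by -0.40 (SE 0.24, unadjusted p = 0.12). In the fatty acid list 27 of the 32 genes were also lower in angII than in ctrl, with a median of -0.29. Of them, 8 reached an unadjusted p under 0.05 (1.85% of all genes), while 0.574% of all genes and 0 of this list were lower in angII without overlap.

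Of the transcription factors of the heart, Hopx, a homeodomain protein of the heart muscle, was at 111, 152, 134 and 88.7 TPM in ctrl, 84.5, 75.8, 54.8, 53.1 and 137 TPM in angII and 41.9, 45.3 and 50.3 TPM in angII+VEGFC. The 3 angII+VEGFC libraries were the lowest of the 12, and the fitted difference was -0.87 (SE 0.28, 95% interval -1.47 to -0.27, unadjusted p = 0.0076), or -0.88 without angII+VEGFC replicate 3 and -0.66 without angII replicate 5. Tbx5, a T-box factor of the atria and the left ventricle, was at 41.9, 45.1, 27.6 and 19.4 TPM in ctrl, 20.3, 16.1, 10.1, 7.06 and 44.8 TPM in angII and 13.5, 6.15 and 6.81 TPM in angII+VEGFC. Here the groups overlapped and angII replicate 5 had the highest angII value, with a fitted difference of -1.07 (SE 0.48, 95% interval -2.08 to -0.05, unadjusted p = 0.04). Prox1, which marks lymphatic endothelium and is also made by heart muscle, was at 5.87, 6.18, 4.68 and 3.04 TPM in ctrl, 3.41, 3.10, 2.10, 2.21 and 4.61 TPM in angII and 1.44, 0.867 and 1.47 TPM in angII+VEGFC. The angII+VEGFC libraries lay below all others, with a fitted difference of -0.97 (SE 0.27, 95% interval -1.55 to -0.38, unadjusted p = 0.0031). These mice carry eGFP at the Prox1 locus in every group, and Prox1 was at a median of 176 TPM in the sorted heart lymphatic endothelial cells (LECs). The 7 lymphatic markers, Prox1 among them, summed to 284, 139, 159, 166 and 213 TPM in angII and 148, 97.5 and 200.5 TPM in angII+VEGFC, and their part in the value of Prox1 was not tested. In the sarcomere list, Tcap, the titin cap protein, was the one gene at an unadjusted p under 0.05. It was at 1445, 851, 993, 847 and 2680.3 TPM in angII and 681, 610.1 and 1032 TPM in angII+VEGFC, overlapping, with a fitted difference of -0.82 (SE 0.35, 95% interval -1.57 to -0.08, unadjusted p = 0.033). Mylk3, the cardiac myosin light chain kinase, was at 101, 46.6, 32.9, 34.1 and 182 TPM in angII and 40.9, 39.3 and 40.3 TPM in angII+VEGFC and differed by -0.91 (SE 0.44, unadjusted p = 0.054). Replicates 1 and 5 were the highest of its angII libraries.

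**Figure D5:**
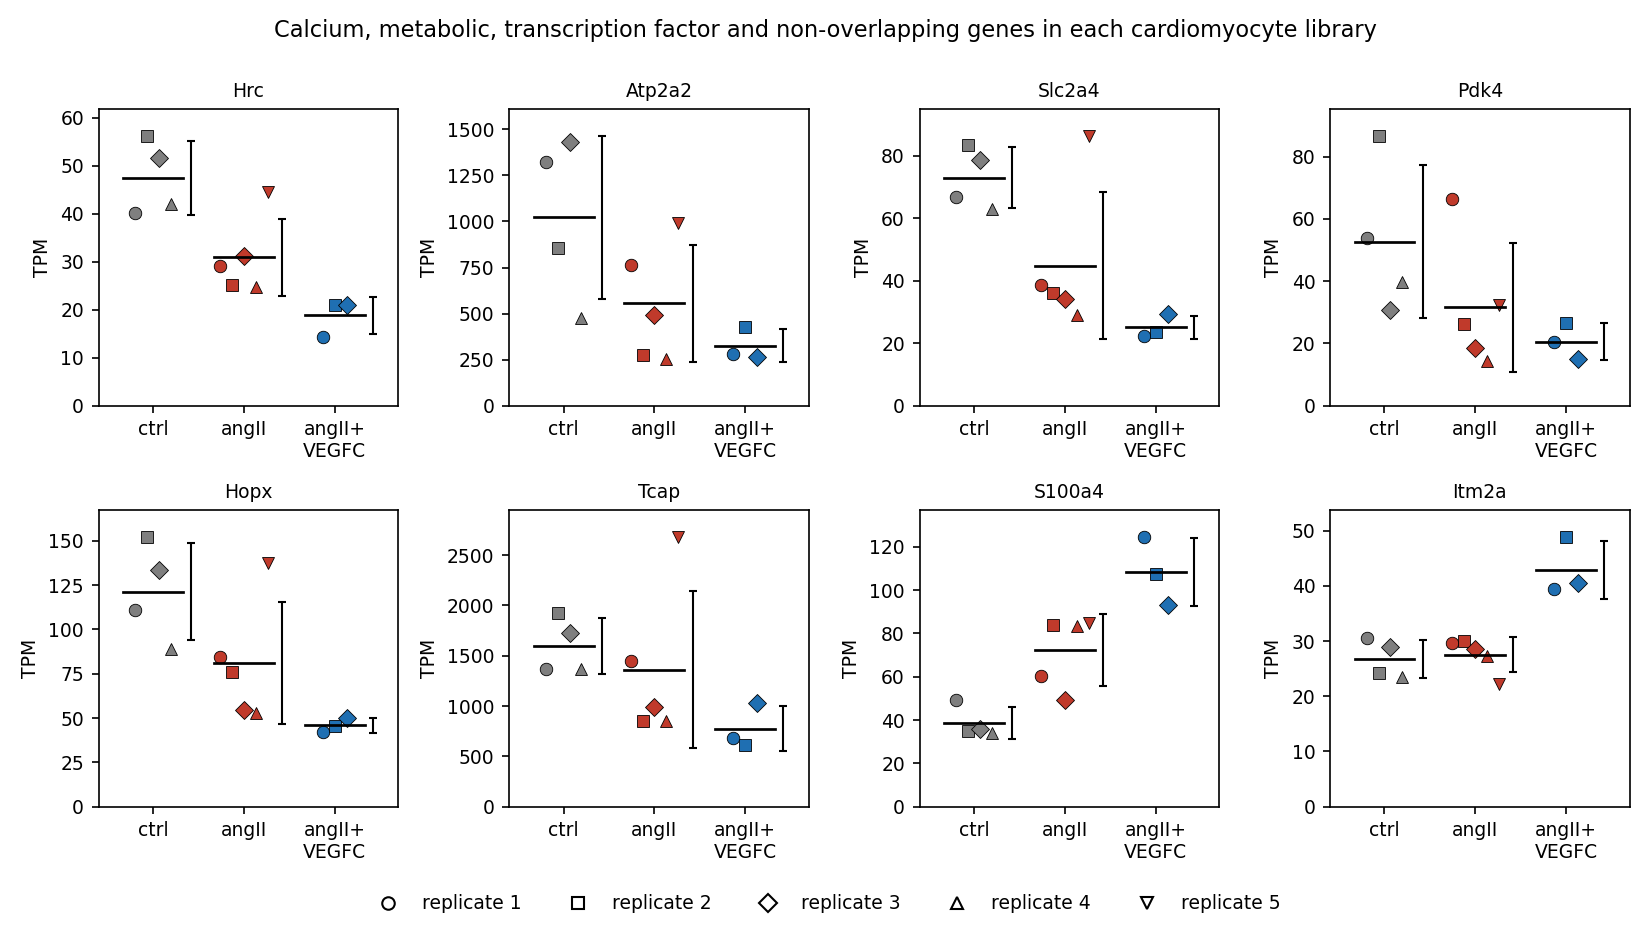
TPM (vertical axes from 0) of genes of calcium cycling (Hrc, Atp2a2), fuel use (Slc2a4, Pdk4), transcription (Hopx) and the sarcomere (Tcap) and of 2 genes without overlap, S100a4 and Itm2a, in each cardiomyocyte library. Points are libraries, lines are group means and the bars beside them ± 1 SD. In Hrc and Hopx the 3 angII+VEGFC libraries lie below all 5 angII libraries, and in S100a4 and Itm2a above them.

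The main receptor of the infused factor was low in these libraries, and no VEGF ligand or receptor passed the test. Flt4, the gene of VEGFR3, was at 9.11, 7.42, 9.91 and 10.2 TPM in ctrl, 10.3, 7.87, 8.69, 12.8 and 9.10 TPM in angII and 10.6, 10.2 and 4.02 TPM in angII+VEGFC, and its fitted difference was -0.17 (SE 0.28, 95% interval -0.76 to 0.41, unadjusted p = 0.54). Its median was 449.6 TPM in the sorted heart LECs and 52.0 TPM in the BECs. Kdr, the gene of VEGFR2, at 155, 88.0, 157, 175 and 77.4 TPM in angII and 132, 104 and 67.8 TPM in angII+VEGFC, differed by -0.24 (SE 0.30, unadjusted p = 0.43). Nrp2, a co-receptor of VEGFC, at 22.5, 12.9, 24.3, 20.3 and 15.0 TPM in angII and 18.3, 16.2 and 10.9 TPM in angII+VEGFC, differed by -0.27 (SE 0.25, unadjusted p = 0.31). In all 3 receptors replicate 3 was the lowest of the angII+VEGFC libraries. The endogenous Vegfc was at 30.1, 9.41, 22.7, 18.2 and 18.2 TPM in angII and 23.9, 20.8 and 21.8 TPM in angII+VEGFC. The fitted difference was 0.23 (SE 0.35, unadjusted p = 0.52). Vegfb, which encodes a ligand of VEGFR1 and is abundant in heart muscle, at 99.2, 63.5, 111, 74.1 and 141 TPM in angII and 43.6, 121 and 72.1 TPM in angII+VEGFC, differed by -0.56 (SE 0.33, unadjusted p = 0.11). Of the 10 ligands and receptors, 3 had a fitted difference above 0 and 7 below, with 0 at an unadjusted p under 0.05, and without replicate 3 the count was 6 above and 4 below. Among hormone receptors and their ligands, 2 of 19 tested genes were lower at an unadjusted p under 0.05, beside 1.56% of all genes. Agt, which encodes the precursor of angiotensin II, was at 5.84, 8.18, 6.81 and 5.82 TPM in ctrl, 3.92, 3.55, 1.83, 3.17 and 10.1 TPM in angII and 0.673, 2.69 and 1.40 TPM in angII+VEGFC. It differed by -1.18 (SE 0.38, 95% interval -1.99 to -0.38, unadjusted p = 0.007). Npr3, the clearance receptor of the natriuretic peptides, was at 3.53, 3.86, 2.31, 3.23 and 5.09 TPM in angII and 1.88, 0.796 and 3.04 TPM in angII+VEGFC and differed by -0.94 (SE 0.35, unadjusted p = 0.016). Both genes were at a few TPM, and in both the groups overlapped.

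The lists of immune and cell stress genes also depended on angII+VEGFC replicate 3. In the inflammation list 27 genes were tested, 13 above and 14 below 0 with a median of -0.01. In that of the unfolded protein and integrated stress responses there were 7 above and 10 below 0 with a median of -0.01, and in that of oxidative stress 3 above and 11 below 0 with a median of -0.09. The immediate early and dissociation genes had 3 above and 17 below 0 with a median of -0.12, and those of the cell cycle 8 above and 9 below 0 with a median of -0.05. With all libraries, 0 genes of these 5 lists had an unadjusted p under 0.05 in either direction. Replicate 3 was below all 5 angII libraries in 21 of the 27 inflammation genes, beside 28.6% of all genes. Without it, 23 of the 27 were above 0 with a median of 0.30, and 5 were higher at an unadjusted p under 0.05. Over all genes in that fit, 8001 of 14910 were above 0, 6909 below, and 476 higher at that p. The median was 0.29 in the unfolded protein list, 0.04 in oxidative stress, 0.06 in the immediate early genes, of which 6 of 20 were then below 0, and 0.08 in the cell cycle list, of which 2 genes were higher at that p. The interferon list had 3 above and 20 below 0 with a median of -0.19, where 55.1% of all genes were below 0. At an unadjusted p under 0.05, 2 of its 23 genes were lower, beside 1.56% of all genes, and without angII+VEGFC replicate 3 its median was -0.15. Ifi44, an interferon-induced protein, was at 4.76, 6.03, 4.91 and 2.66 TPM in ctrl, 10.4, 6.83, 7.91, 6.48 and 6.50 TPM in angII and 6.03, 4.60 and 5.74 TPM in angII+VEGFC. All angII+VEGFC libraries lay below all angII libraries, and it differed by -0.54 (SE 0.24, 95% interval -1.05 to -0.02, unadjusted p = 0.042). Gbp3, a guanylate-binding protein, was at 26.6, 14.2, 20.5, 17.4 and 21.4 TPM in angII and 12.3, 15.8 and 17.0 TPM in angII+VEGFC, overlapping, and differed by -0.52 (SE 0.21, unadjusted p = 0.026). The 13 mitochondrially encoded genes had a median of -0.10, with 11 below 0, and the 16 tested macrophage and leukocyte markers a median of -0.08, beside 0.72 for angII over ctrl. Without replicate 3 these medians were -0.31 and 0.19.

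Some genes separated the groups without overlap, in no greater share than labelling alone would give. In 131 genes all 3 angII+VEGFC values lay above all 5 angII values (0.835%) and in 133 below (0.848%). Of the 56 labellings of 5 and 3 libraries, a share of 0.0357 separates the groups in either direction. The shares found are together smaller, so the number of such genes alone shows no effect of VEGFCc156s. With a mean of 5 TPM or more, a protein-coding gene name and an unadjusted p under 0.05, 13 were higher and 34 lower, and the 10 with the greatest fitted difference in each direction are named. S100a4, a calcium-binding protein of fibroblasts and leukocytes, was at 49.4, 34.9, 35.9 and 33.9 TPM in ctrl, 60.2, 84.0, 49.3, 83.3 and 84.9 TPM in angII and 125, 107 and 93.3 TPM in angII+VEGFC. All 3 angII+VEGFC libraries lay above all angII and ctrl libraries, and the fitted difference was 0.62 (SE 0.24, 95% interval 0.11 to 1.12, unadjusted p = 0.02). Itm2a, a membrane protein, was at 29.7, 30.0, 28.6, 27.3 and 22.2 TPM in angII and 39.4, 48.9 and 40.4 TPM in angII+VEGFC. Its fitted difference was 0.58 (SE 0.19, 95% interval 0.18 to 0.98, unadjusted p = 0.0076). Wdr75, a factor of ribosomal RNA synthesis, was at 7.01, 7.80, 7.99, 6.50 and 8.22 TPM in angII and 12.2, 18.3 and 11.7 TPM in angII+VEGFC. This gave a fitted difference of 0.81 (SE 0.22, 95% interval 0.33 to 1.28, unadjusted p = 0.0025). The other higher genes were Selenoi, Cgref1, Rcl1, Trmt10b, Ttc37, Rpf2 and Pfdn4, with fitted differences from 0.48 in Pfdn4 to 0.85 in Selenoi.

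Among the 10 lower genes, Lpin1, a phosphatidate phosphatase and coactivator of fatty acid oxidation genes, was at 17.0, 20.3, 15.7 and 14.7 TPM in ctrl, 14.5, 11.1, 11.3, 11.0 and 24.7 TPM in angII and 6.66, 7.41 and 10.5 TPM in angII+VEGFC. Between the 2 groups it differed by -0.85 (SE 0.26, 95% interval -1.40 to -0.29, unadjusted p = 0.0056). Rnf207, a ring finger protein linked to cardiac repolarization, was at 19.4, 15.7, 13.7 and 10.7 TPM in ctrl, 8.59, 5.89, 5.82, 6.74 and 14.1 TPM in angII and 5.00, 2.86 and 3.96 TPM in angII+VEGFC. The fitted difference was -0.94 (SE 0.30, 95% interval -1.57 to -0.30, unadjusted p = 0.0067). Hfe2, the gene of hemojuvelin, which is made by striated muscle, was at 40.9, 33.5, 31.9, 28.4 and 76.5 TPM in angII and 17.7, 27.2 and 28.3 TPM in angII+VEGFC. Its fitted difference was -0.86 (SE 0.30, 95% interval -1.49 to -0.22, unadjusted p = 0.012). H2-Q6, a class I histocompatibility gene, had the furthest fitted difference, -1.03 (SE 0.32, unadjusted p = 0.0066), at 90.5, 32.7, 47.7, 39.4 and 54.9 TPM in angII and 28.4, 21.6 and 28.2 TPM in angII+VEGFC. Its value is uncertain, since the genes of this family are near copies of each other and share reads. Mtr, Lrrc20, Secisbp2 and Tti1 followed with fitted differences from -0.83 in Mtr to -0.78 in Tti1, beside Hrc and Hopx. In Rnf207, Hfe2, Lpin1, Hopx, Hrc, Mtr and Lrrc20, angII replicate 5 was the highest angII library.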

How the data were processed

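Cardiomyocytes pelleted from digested hearts were profiled by RNA-seq in 12 mice, and all samples of the series lie in a deposited matrix of TPM values, which the authors made from reads aligned with STAR 2.5.3a and quantified with Salmon 0.12.0 on GRCm38, per the labels. The matrix holds 54752 genes, 54723 of them with a symbol. TPM carries no read depth, so depth is unknown and library totals are alike (999874 to 999929). Groups were taken from the labels, with 1 mouse per library.

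Genes that reached 1 TPM in 3 or more of the 12 libraries were tested with limma 3.58.1 (trend, R 4.3.3) on log2(TPM + 1), all 3 groups in 1 model with age as a covariate, after which p was adjusted by Benjamini-Hochberg over all genes tested. The count model with surrogate variables of the study was not repeated. Library measures were compared by an exact permutation test (SciPy 1.17.1, Python 3.11.15, two-sided). Figures were made in matplotlib 3.10.9, and the scripts were tested on simulated data. Gene lists are described by counts and medians, with no test of the list.

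Genes were named by a rule: the cardiomyocyte markers and the stress list, up to 4 members of each other list by level and up to 2 by p, the 10 non-overlapping genes of the greatest difference in each direction, the genes that passed between angII and ctrl, and the VEGF ligands and receptors. One gene that passed between angII and ctrl is not reported here. The members and lists were chosen with earlier results of these data known. Alternatives were a pseudocount of 0.1, no filter, a filter of 5 TPM, no covariates, 1 surrogate variable, quantile normalization, rescaling without mitochondrially encoded and haemoglobin genes, the number of detected genes as a covariate, only the 2 groups compared, and each library left out in turn.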

Additional observations from a re-analysis of the deposited data

Results flagged for a closer look

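In groups of 4 or 5 libraries, a value was set aside here when its gap to the nearest library exceeded the share of the group's range given by Dixon's test, which chance passes in about 1 of 20 groups. Of 74 groups examined (24 genes and 13 library measures in ctrl and angII) 5 held such a value, and angII+VEGFC, with 3 libraries, was not examined. Replicate 5 of angII was far above the other angII libraries in Myh6 (3914 TPM, against 1379 to 1899 TPM) and in Slc2a4 (86.2 TPM, against 28.9 to 38.5 TPM). Replicate 1 of angII stood apart in the adipocyte markers, which summed to 28.3 TPM. In ctrl, replicate 3 stood apart in the erythrocyte markers, which summed to 20380.0 TPM, and replicate 1 in S100a4, at 49.4 TPM against 33.9 to 35.9 TPM in the other 3 libraries.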

How the results depend on the processing

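No gene passed the test between angII+VEGFC and angII under any of the 9 other settings or without any of the 12 libraries, and the number at an unadjusted p under 0.05 was 194 to 1442. The count between angII and ctrl, 14, was 0 with no filter, 23 with the stricter filter, 37 after quantile normalization, 245 with only the 2 groups in the model, 273 with 1 surrogate variable, 473 with the number of genes as a covariate, and 0 to 314 when single libraries were left out. The surrogate variable was taken from the residuals of the same fit, so it left every fitted difference as it was and changed only the spread. The rise in the count with it is therefore no separate evidence. The count was 0 without ctrl replicate 3 and without angII replicate 1, and the cause was not tested. For the 14 genes themselves, 111 of 168 values with a library left out and 19 of 125 under other settings missed the threshold, none in the other direction. Of 75 genes described between angII+VEGFC and angII, 49 kept their sign without any library. Other settings turned Myh7 (-0.052), Ankrd1 (0.020), Rcan1 (0.067), Mt2 (0.087) and Ccn5 (-0.056) without covariates, Ankrd1 (0.22), Rcan1 (0.28), Mt2 (0.19), Nes (0.22), Ltbp2 (0.49) and Flt4 (0.036) with the number of genes as a covariate, and Ankrd1 (0.14), Rcan1 (0.020), Nes (0.070) and Ltbp2 (0.30) with only the 2 groups. With single libraries left out, the fitted difference ranged over Nppb -0.51 to 1.18, Nppa -0.60 to 0.38, Acta1 -0.42 to 1.81, Myh7 -0.89 to 0.85, Ankrd1 -0.62 to 0.52, Xirp1 -0.20 to 1.22, Xirp2 -0.18 to 1.08, Csrp3 -0.081 to 0.46, Flnc -0.026 to 0.83, Rcan1 -0.46 to 0.54, Ccn1 -0.31 to 0.20, Ccn2 -0.43 to 0.96, Gdf15 -0.16 to 0.60, Mt1 -0.38 to 0.014, Mt2 -0.33 to 0.38, Tnni1 -0.36 to 0.12, Nes -0.44 to 0.41, Ltbp2 -1.19 to 0.95, Sparc -0.10 to 0.42, Postn -0.38 to 0.89, Ccn5 -0.32 to 0.37, Cthrc1 -0.50 to 1.02, Col8a1 -0.12 to 0.93, Timp1 -0.35 to 0.87, Kdr -0.51 to 0.047 and Flt4 -0.39 to 0.14. The differences in library measures ranged over genes at 1 TPM or more -598 to 2442, the mitochondrially encoded share -4.19 to 1.33 percentage points, cardiomyocyte markers -1264 to 357 TPM, atrial cardiomyocyte markers -1874 to 411 TPM, blood endothelium markers -103 to 373 TPM, fibroblast markers -264 to 2217 TPM, pericyte and smooth muscle markers -105 to 252 TPM, macrophage and leukocyte markers -451 to 599.9 TPM, erythrocyte markers -1872 to 3805 TPM, adipocyte markers -3.14 to 8.31 TPM and Schwann cell markers -1.09 to 2.44 TPM. The list medians stayed within 1 SD between libraries of their values. That SD includes angII+VEGFC replicate 3, so it could not judge the move made by leaving this library out. The medians of the stress and matrix lists changed sign without angII+VEGFC replicate 1 or 2, and that of the stress list also without angII replicate 1 (-0.004). Those of the sarcomere (0.03) and inflammation (0.30) lists did so without angII+VEGFC replicate 3. The inflammation median, near 0 with all libraries, also did so without angII replicate 1 (0.12), without covariates (0.01) and with the number of genes as a covariate (0.13). With 3 and 5 libraries, and the depth of the libraries unknown from TPM, small changes could not be resolved. No paired analysis was possible because each library came from another mouse and the replicate numbers only follow the order of the labels.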
